A study of Mus musculus with 2 samples.

Results

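Foxc1, Foxc2, Foxl2, Lmx1b, Osr1, Osr2, Alx1, Tbx22 and Twist2 encode 9 transcription factors of the periocular mesenchyme, the loose connective tissue around the optic cup. They were taken by gene symbol from the 31053 genes counted in each of 2 single-cell RNA-seq libraries, and all 9 were detected. The control library was made from Myrf fl/fl embryos, in which both copies of Myrf are flanked by loxP sites and which carried no Cre, and the mutant library from Rx>cre Myrf fl/fl embryos, in which Cre driven by Rx regulatory sequence acts in the early eye field. Both libraries were made at e15.5 from 3 pooled eye cups after the cornea, lens and optic nerve had been cut away, so the sampled mesenchyme was what remained attached to the cup. There was 1 library per genotype, so differences between genotypes had no replicate check and no test was made.

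Periocular mesenchyme comes from cranial neural crest and, to a lesser extent, from mesoderm, and gives rise to the corneal stroma, the trabecular tissue, the sclera, the eyelids, tendons of the eye muscles and the coats of blood vessels. Transcription factors of several families divide this tissue into territories: forkhead factors (Foxc1, Foxc2, Foxl2), a LIM homeodomain factor (Lmx1b), odd-skipped zinc finger factors (Osr1, Osr2), a paired-type homeodomain factor (Alx1), a T-box factor (Tbx22) and a bHLH factor (Twist2). In humans, changes in FOXC1 are known from Axenfeld-Rieger syndrome, in FOXL2 from narrowing of the eyelid opening, in TBX22 from X-linked cleft palate, in LMX1B from nail-patella syndrome, and in TWIST2 from syndromes of abnormal eyelids.

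RefSeq (GRCm38.p6) sequences from 250 bases before to 50 bases after the start of transcription were at hand for Foxc1, Foxl2, Lmx1b, Tbx22 and Twist2. Those of Foxl2 and Tbx22, both highest in Mfap5/Tnxb cells among the larger mesenchyme subtypes, and of Twist2 and Lmx1b, both high in keratocyte-like cells, are shown 5′ to 3′, to set side by side the promoters of genes that share a site of high expression. Capitals mark GC boxes (GGGCGG, either strand) and E-boxes (CANNTG), the motif bound by bHLH factors.
Foxl2 promoter: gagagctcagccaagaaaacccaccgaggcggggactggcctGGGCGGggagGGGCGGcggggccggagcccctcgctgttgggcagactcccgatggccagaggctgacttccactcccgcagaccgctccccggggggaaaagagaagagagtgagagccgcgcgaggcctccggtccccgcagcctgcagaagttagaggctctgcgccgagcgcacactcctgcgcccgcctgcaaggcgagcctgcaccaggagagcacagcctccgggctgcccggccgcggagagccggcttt
Tbx22 promoter: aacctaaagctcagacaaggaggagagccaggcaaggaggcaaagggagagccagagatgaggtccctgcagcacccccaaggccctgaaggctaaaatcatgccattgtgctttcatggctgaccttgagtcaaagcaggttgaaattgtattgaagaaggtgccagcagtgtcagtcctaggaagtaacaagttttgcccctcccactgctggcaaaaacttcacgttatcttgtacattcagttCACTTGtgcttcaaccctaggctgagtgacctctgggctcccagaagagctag
Twist2 promoter: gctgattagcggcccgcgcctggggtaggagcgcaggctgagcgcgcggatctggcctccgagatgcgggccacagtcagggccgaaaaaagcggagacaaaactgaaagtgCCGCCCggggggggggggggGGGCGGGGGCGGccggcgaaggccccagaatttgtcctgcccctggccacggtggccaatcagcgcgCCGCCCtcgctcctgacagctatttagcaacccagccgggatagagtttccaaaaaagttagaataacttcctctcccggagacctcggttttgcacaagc
Lmx1b promoter: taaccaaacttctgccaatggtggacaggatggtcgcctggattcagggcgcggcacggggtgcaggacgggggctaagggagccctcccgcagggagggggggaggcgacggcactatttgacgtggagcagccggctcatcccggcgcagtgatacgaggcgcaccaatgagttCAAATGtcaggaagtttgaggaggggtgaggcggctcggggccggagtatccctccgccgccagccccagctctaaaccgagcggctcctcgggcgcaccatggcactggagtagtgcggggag
The Foxl2 sequence lies at chr9:98955357-98955656 on the plus strand, and had 71.3% GC, 27 CpG dinucleotides, 2 GC boxes and no E-box. The Tbx22 sequence lies at chrX:107667714-107668013 on the plus strand, the first of 3 annotated starts, and had 50.7% GC, 1 CpG, no GC box and 1 E-box. The other Tbx22 starts had 50.3% and 43.3% GC with 2 and 1 CpG. Over all 32851 promoters of this length the median was 52.7% GC and 7 CpG, so Tbx22 lay below the median in CpG at each start and Foxl2 far above it. Twist2 (chr1:91801211-91801510, plus strand) had 64.7% GC, 25 CpG and 4 GC boxes, 2 of which adjoin in the sequence, and no E-box. Lmx1b (chr2:33641049-33641348, minus strand) had 65.7% GC, 24 CpG and 1 E-box but no GC box. Foxc1 had 67.3% GC, 32 CpG and 1 GC box. An E-box occurred in 72.3% and a GC box in 35.7% of all promoters. No match to a forkhead motif (TGTTTAC), a homeodomain core (TAATTA) or a TATA box (TATAAA) was found in these windows, where the shares over all promoters were 3.65%, 5.29% and 13.6%.

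On GRCm38, the single-exon forkhead genes are Foxc1 (ENSMUSG00000050295, chr13:31806633-31812476), Foxc2 (ENSMUSG00000046714, chr8:121116171-121118895) and Foxl2 (ENSMUSG00000050397, chr9:98955288-98958543), all on the plus strand. Lmx1b (ENSMUSG00000038765) spans chr2:33560965-33640511 and Alx1 (ENSMUSG00000036602) chr10:102998707-103030215, both on the minus strand. On the plus strand are Osr1 (ENSMUSG00000048387, chr12:9570116-9581500), Osr2 (ENSMUSG00000022330, chr15:35296098-35303305), Twist2 (ENSMUSG00000007805, chr1:91801461-91848028) and the X-linked Tbx22 (ENSMUSG00000031241, chrX:107667964-107688978). All 9 are annotated as protein coding. This annotation and RefSeq place some starts differently: the Foxl2 window shown above lies inside the gene as annotated here, and the Lmx1b window lies wholly before it.

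The control library held 13017 barcodes and 1.32e+08 unique molecular identifiers (UMIs, which tag single captured transcripts), and the mutant library 13880 barcodes and 1.36e+08 UMIs, of which 11518 and 12576 cells were kept. The libraries shared 69 barcodes. Levels are given as CPM, the UMIs of a gene per 1e+06 UMIs of the cells named. Myrf itself fell from 74.4 to 26.0 CPM in cells with markers of the retinal pigment epithelium (RPE), where Rx>cre acts, with a ratio of 0.350. Y-linked transcripts were found in 1 of 2978 control mesenchyme-like cells and in 1123 of 2170 mutant ones (51.8%), so the pools differed in the sex of the embryos, and genotype and sex cannot be told apart where all cells are compared.

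Cells were clustered without the 9 genes and without the naming markers as features. Clusters with markers of mesenchyme or of pericytes, the contractile cells on capillaries, were merged as mesenchyme-like. They made up 2978 control cells (25.9%) and 2170 mutant cells (17.3%), so that the ratio of shares was 0.667 (95% counting interval 0.631 to 0.706). Their median depth was 13523.5 and 13976.5 UMIs per cell. All intervals here cover counting error only. The mesenchyme-like cells held 88.2% to 97.1% of the UMIs of each of the 9 genes. The lowest shares were those of Foxc1, at 90.6% in the control and 88.2% in the mutant, and the highest share was that of Twist2 in the control. Retinal ganglion cells, which should lack these factors, gave the background from free RNA: 0.108 to 2.60 CPM over the 9 genes and both libraries. The highest of these values was Twist2 in the mutant, and the next was Osr2 in the control at 1.26.

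After each cell was thinned to 2000 UMIs, which left out 18 control and 26 mutant mesenchyme-like cells, Twist2 was detected in 22.9% (21.4 to 24.4) of control and 20.3% (18.6 to 22.1) of mutant cells. Osr2 was found in 21.7% and 18.6%, Foxc1 in 19.4% and 18.7%, Foxl2 in 10.4% and 8.63%, and the remaining genes each in 4.10% to 8.35%. In ganglion cells the thinned share was 0.214% at most. Without thinning, the shares for Foxc1 were 64.0% and 59.2% and for Twist2 54.2% and 49.8%. Most mesenchyme-like cells therefore showed few of these transcripts at equal depth: 31.1% of control and 34.7% of mutant cells had none of the 9 genes detected, and 27.8% and 23.6% had at least 2.

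The mesenchyme-like cells were divided into 14 subtypes, named from a marker list where that list scored at least 1 and held one of the leading genes, and otherwise by their first 2 leading genes other than the 9 factors. Nts/Mgat4c cells scored 1.24 for markers of vessel sheath and meninges, none of which was among their leading genes, and so were named by genes. Dividing cells whose next best list was that of keratocytes were called dividing keratocyte-like. The 9 genes fell into differing territories among them. Osr1, Osr2, Foxl2, Tbx22 and Alx1 were high in the Mfap5/Tnxb subtype and low in keratocyte-like cells, and Twist2 showed the opposite. Lmx1b was shared by keratocyte-like, Ednrb/Cldn10 and Tnn/Coch cells and by part of the pericyte-like cells. The part led by pericyte genes, described below, had few Lmx1b UMIs. Foxc1, Foxc2 and Lmx1b spanned narrower ranges than the others, as the ratio of the highest to the lowest level, over the 10 subtypes with at least 50 cells in each library. Foxc1 ranged from 53.0 to 297 CPM in the control and from 42.5 to 276 in the mutant, Lmx1b from 12.4 to 76.1 and from 13.9 to 89.7, and Foxc2 from 7.59 to 60.7 and from 5.69 to 52.0. Osr2 ranged from 0.590 to 549 and from 0.854 to 564, and Osr1 from 0 to 140 and from 0 to 134.

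**Figure D1:**
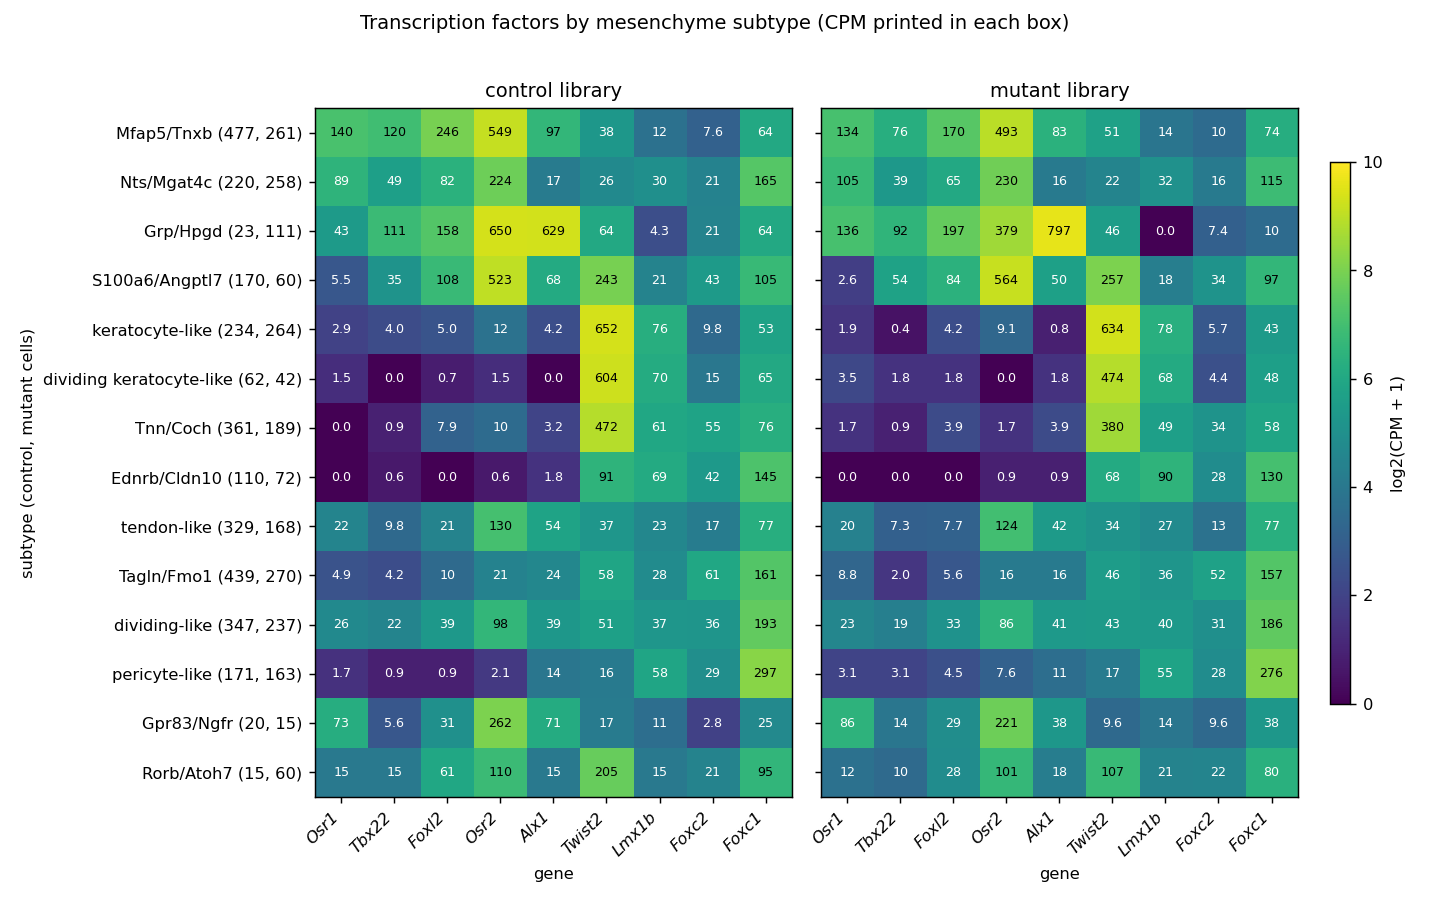
Levels of the 9 transcription factors (columns) in 14 mesenchyme subtypes (rows, with control and mutant cell numbers), as CPM printed in each box and coloured on a log2 scale, for the control (left) and mutant (right) library. Osr1, Tbx22, Foxl2, Osr2 and Alx1 share the upper rows, while Twist2 is highest in keratocyte-like cells, at 652 and 634 CPM.

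The odd-skipped factors overlapped only in part. Osr2, known for its role in the palate and in joints, was at 549 CPM (530 to 569) in control and 493 (469 to 519) in mutant Mfap5/Tnxb cells, and at 523 (494 to 553) and 564 (511 to 620) in S100a6/Angptl7 cells. Neither subtype was consistently the higher: they overlapped in the control, and S100a6/Angptl7 cells had the higher value in the mutant with intervals that just overlapped. Nts/Mgat4c cells followed at 224 and 230, and tendon-like cells at 130 and 124. Osr1, a factor of lateral mesoderm, kidney and connective tissue, was at 140 (130 to 150) and 134 (121 to 148) in Mfap5/Tnxb cells and at 89.0 (77.5 to 102) and 105 (93.1 to 118) in Nts/Mgat4c cells. In S100a6/Angptl7 cells, where Osr2 was as high as anywhere among the larger subtypes, Osr1 was only at 5.48 and 2.63 CPM. The S100a6/Angptl7 subtype therefore carried Osr2 with little Osr1 in each library.

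Foxl2, the forkhead factor of the eyelid and ovary, was highest among the larger subtypes in Mfap5/Tnxb cells, at 246 (233 to 259) in the control and 170 (155 to 185) in the mutant. It was at 108 and 84.3 in S100a6/Angptl7 cells and at 82.4 and 64.9 in Nts/Mgat4c cells, and these last neighbours had overlapping intervals in the mutant (64.9 to 108 and 55.7 to 75.2). No Foxl2 UMI was counted in the 110 control and 72 mutant Ednrb/Cldn10 cells, with upper bounds of 2.18 and 3.15 CPM. Tbx22 was also highest among the larger subtypes in Mfap5/Tnxb cells, with 120 (111 to 129) and 75.6 (66.1 to 86.1) in Mfap5/Tnxb cells and 49.0 and 38.9 in Nts/Mgat4c cells. In S100a6/Angptl7 cells Tbx22 was at 34.6 in the control and 54.0 in the mutant, with intervals that overlapped those of Nts/Mgat4c cells in both libraries.

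Alx1, a homeodomain factor of the frontonasal skeleton and periocular crest, was most abundant in the Grp/Hpgd subtype, a set of 23 control and 111 mutant cells. Its level there was 629 CPM (531 to 739) in the control and 797 (744 to 852) in the mutant. The next levels, in Mfap5/Tnxb cells, were 97.0 (89.1 to 105) and 82.6 (72.6 to 93.5). Alx1 was also at 68.3 and 50.03 in S100a6/Angptl7 cells and at 54.4 and 42.4 in tendon-like cells. Osr2, Foxl2 and Tbx22 were present in Grp/Hpgd cells as well, at 650 and 379, 158 and 197, and 111 and 91.6 CPM. Foxc1 was at 64.2 there in the control, from 15 UMIs, and at 10.2 in the mutant, from 11 UMIs. Other genes leading this subtype included Fabp4, Epha5, Shox2 and Meis1, and also the neuronal genes Snap25 and Gpm6a. Summed neural retina genes in these cells were at 270 and 434 CPM, below the 460 and 664 over all mesenchyme-like cells. The same sum was at 937 and 968 in keratocyte-like cells, and the source of these counts was not tested.

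Twist2, a bHLH repressor known for its part in the dermis, was at 652 (627 to 678) and 634 (611 to 657) CPM in keratocyte-like cells, named from markers of the corneal stroma that included Kera, although the cornea had been cut away. Whether these cells were cornea left on the cup was not tested. Dividing keratocyte-like cells followed at 604 and 474, and Tnn/Coch cells at 472 and 380. The S100a6/Angptl7 subtype was intermediate, at 243 and 257, and carried Osr2 and Twist2 together. All other larger subtypes were at 90.9 or lower. Lmx1b, which is needed for the cornea and the anterior segment, was at 76.1 (67.6 to 85.5) and 78.3 (70.6 to 86.7) in keratocyte-like cells, at 69.1 (57.1 to 82.8) and 89.7 (73.4 to 109) in Ednrb/Cldn10 cells, at 60.7 and 48.7 in Tnn/Coch cells and at 57.9 and 54.6 in pericyte-like cells. Dividing keratocyte-like cells had 69.8 and 67.8. The keratocyte-like and Ednrb/Cldn10 values could not be ordered, since their intervals overlapped in each library. Ednrb/Cldn10 cells thus had Lmx1b as high as keratocyte-like cells but Twist2 at 90.9 and 68.3, and 0 UMIs of Osr1.

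Foxc1, a forkhead factor of the anterior segment and of vessel-associated mesenchyme, was at 297 (276 to 320) and 276 (255 to 299) in the pericyte-like subtype and at 193 (183 to 204) and 186 (174 to 199) in dividing-like cells. Tagln/Fmo1 cells had 161 and 157. Keratocyte-like cells had the lowest Foxc1 of the larger subtypes, at 53.0 and 42.5. Among the larger subtypes, its paralog Foxc2 was highest in Tagln/Fmo1 cells, at 60.7 (55.1 to 66.8) and 52.0 (45.5 to 59.2). Tnn/Coch cells had 54.6 (47.9 to 61.9) and 33.9 (26.8 to 42.4), with overlapping intervals in the control. The pericyte-like subtype as a whole was at 29.4 and 27.7 for Foxc2, but its Rgs5-rich part, described next, was higher.

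The pericyte-like subtype was not uniform. At a finer division a set of 17 control and 28 mutant cells was led by Rgs5, Kcnj8, Ndufa4l2 and Abcc9, defining genes of pericytes. A larger set of 151 and 133 cells was led by Ecm1 and Lypd1. This larger set scored best for vessel sheath and meninges (0.520) and bone (0.504), with no listed pericyte marker among its leading genes. Foxc1 was at 166 (119 to 225) and 196 (155 to 244) in the Rgs5-rich cells and at 314 (291 to 340) and 296 (271 to 322) in the Ecm1/Lypd1 cells. Lmx1b was at 8.10 and 2.45 in the Rgs5-rich cells, from 2 and 1 UMIs, and at 64.5 and 66.0 in the Ecm1/Lypd1 cells. Foxc2 went the other way, at 72.9 (43.2 to 115) and 53.8 (33.7 to 81.5) against 23.0 (16.9 to 30.5) and 21.8 (15.52 to 29.8). The Lmx1b of the pericyte-like subtype therefore came from Ecm1/Lypd1 cells, and cells with the defining pericyte genes had Foxc1 and Foxc2 with few Lmx1b UMIs. The finer division also gave 2 sets with markers of vessel sheath and meninges, in which Foxc1 was at 211 and 323 in the control and 193 and 264 in the mutant.

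Outside the mesenchyme-like cells, some of the 9 genes stood well above the ganglion cell background. Muscle cells, from the extraocular muscles, had Foxc1 at 22.5 (17.9 to 27.8) in the control and 25.9 (20.5 to 32.3) in the mutant and Lmx1b at 10.6 (7.55 to 14.4) and 13.0 (9.21 to 17.7), over 168 and 153 cells. The other factors in muscle were at 6.64 or lower. Endothelial cells had Foxc1 at 70.5 and 69.7 and Foxl2 at 60.6 (50.9 to 71.7) and 51.5 (40.9 to 63.9), with no Alx1 UMI in either library. Surface epithelium had Osr2 at 163 (143 to 185) and 114 (99.3 to 130), Foxc1 at 89.2 and 67.6 and Foxc2 at 30.9 and 16.9. Alx1 was at 51.5 (35.9 to 71.6) in 50 control and 49.3 (30.5 to 75.3) in 30 mutant melanocytes, where no Tbx22 UMI was seen. In the RPE, Osr2 was at 9.91 (7.04 to 13.5) in the control, from 39 UMIs of which 5 cells held 76.9%. It was at 0.474 in the mutant, from 1 UMI (ratio 0.0478, 0.00118 to 0.282). The mesenchyme markers used for naming had ratios from 0.511 (Lum) to 1.42 (Postn) in the RPE. Among them, Dcn was at 184 and 118 CPM there, against 10.6 and 21.6 in ganglion cells. The part of mesenchyme RNA in the Osr2 values of the RPE was not tested. The other factors in the RPE were at 5.68 or lower. Of the neural retinal classes, control photoreceptor precursors had Alx1 at 5.34 (2.84 to 9.13) and Foxl2 at 3.28, from 13 and 8 UMIs, above the ganglion cell range. In mutant precursors these genes were at 0.854 and 0.285, from 3 and 1 UMIs. Control amacrine or horizontal cells had Twist2 at 2.88, from 10 UMIs, just above that range. A cluster of low depth with stromal genes, 551 control and 511 mutant cells, was left unnamed because it was shallow and its leading genes held no marker of muscle, its best-scoring class. It carried all 9 factors, among them Foxc1 at 141 and 85.4 and Twist2 at 134 and 85.4.

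**Figure D2:**
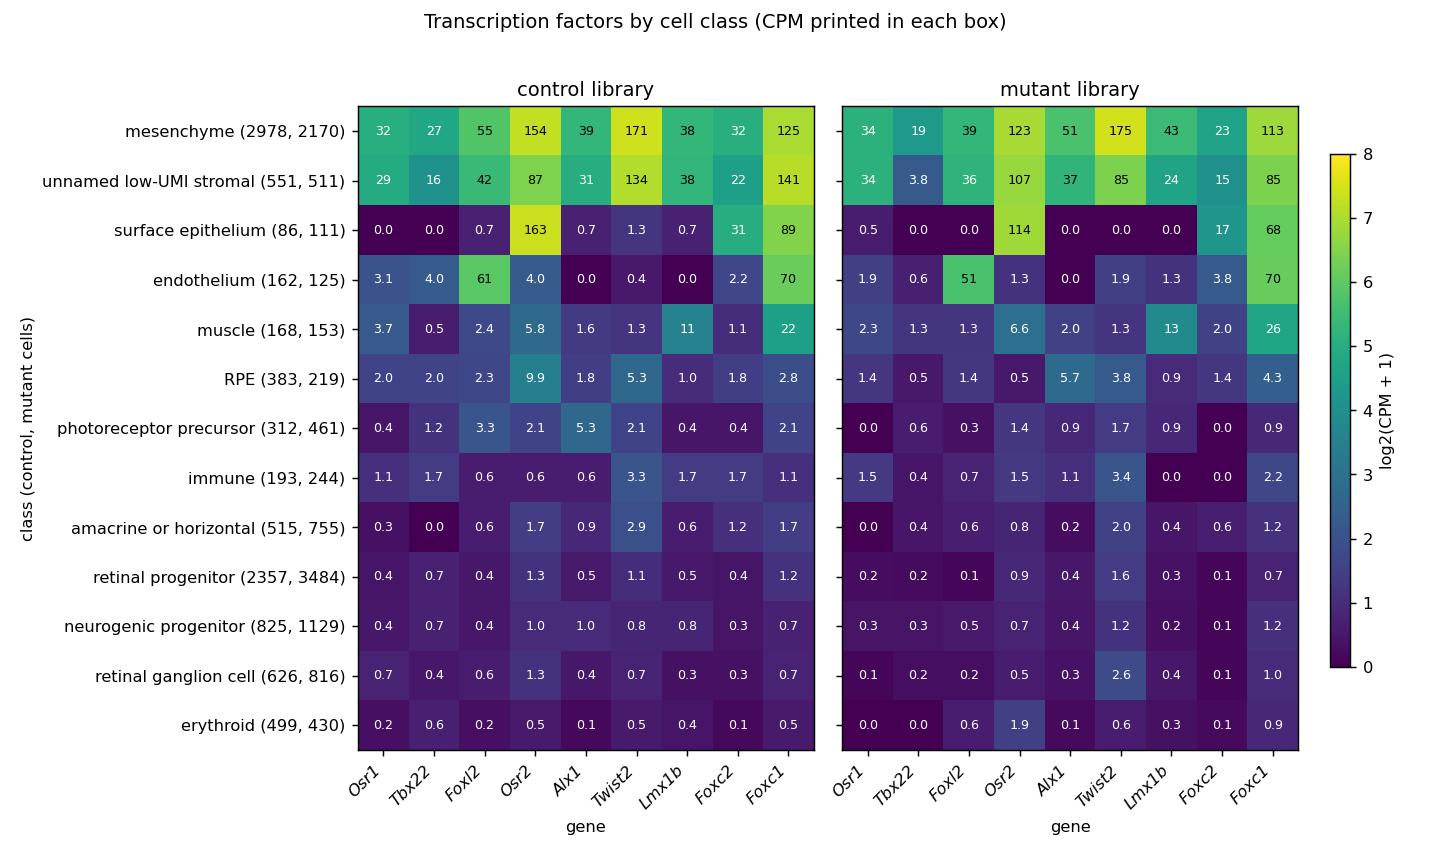
Levels of the 9 transcription factors by cell class, for classes with at least 50 cells in each library, as CPM printed in each box and coloured on a log2 scale. Mesenchyme stands at the top, surface epithelium has Osr2 (163 and 114) and Foxc1, endothelium has Foxl2 (60.6 and 51.5) and Foxc1, and neural retinal classes are at 5.34 or lower.

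The same division appeared within single cells. Thinned cells with Foxl2 had Osr2 in 52.8% (47.0 to 58.5) in the control, against 18.1% (16.7 to 19.7) of cells without Foxl2, and in 45.9% against 15.98% in the mutant. Cells with Osr1 had Foxl2 in 35.3% (28.5 to 42.5) against 8.66% in the control and in 23.0% against 7.53% in the mutant. Twist2 was found in 6.84% of control cells with Osr1 and in 24.0% of those without, and in 7.24% against 21.3% in the mutant. Lmx1b and Twist2 met somewhat more often: 27.8% (22.0 to 34.2) of control cells with Lmx1b had Twist2, against 22.5% (20.9 to 24.1), with overlapping intervals, and 28.2% (21.5 to 35.8) against 19.6% (17.9 to 21.5) in the mutant, where the intervals met at 21.5%. Foxc1 and Foxc2 were together no more often than apart in the control, at 5.76% against 5.82%, whereas in the mutant Foxc2 was in 30 of 400 cells with Foxc1 (interval 5.12% to 10.53%) and in 3.67% (2.84 to 4.66) of those without. Alx1 joined Foxl2 in 14.98% (11.2 to 19.5) of control and 28.1% (21.8 to 35.2) of mutant cells with Foxl2. In cells without Foxl2 it was found in 5.96% and 6.48%. Grp/Hpgd cells, which carry both genes, were 0.772% of control and 5.12% of mutant mesenchyme-like cells. Their part in the higher mutant value was not tested.

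**Figure D3:**
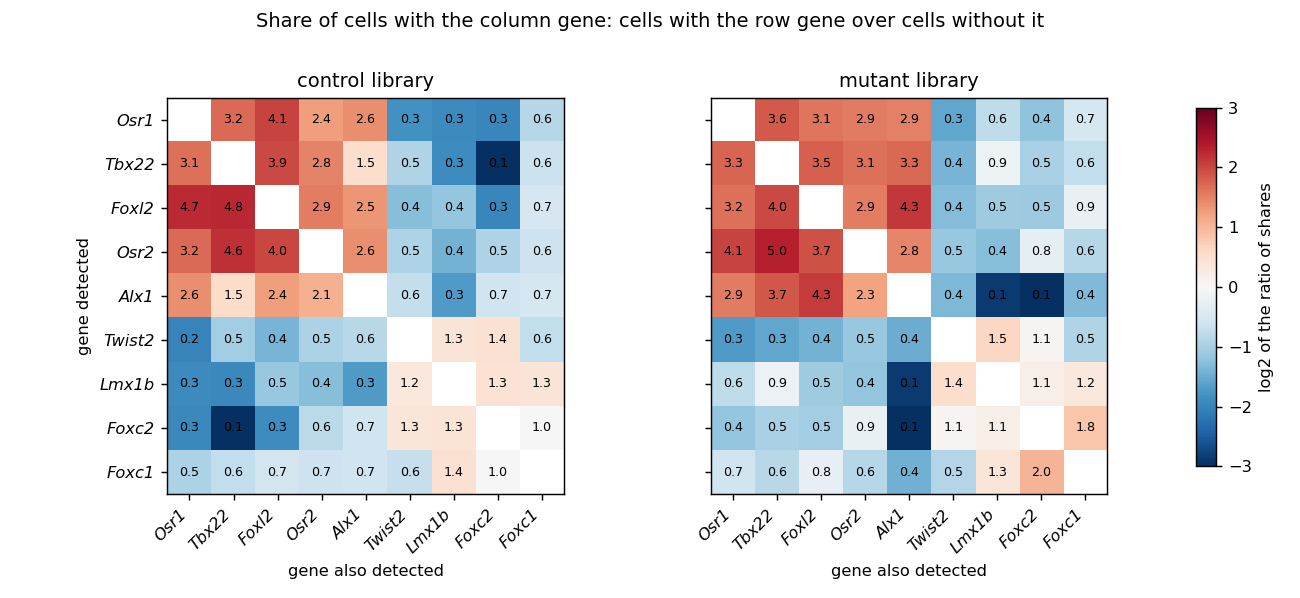
For each pair, the share of mesenchyme-like cells with the column gene among cells with the row gene, divided by the share among cells without it, after thinning to 2000 UMIs per cell. Red marks pairs found together more often, blue less often, and the 5 genes Osr1, Tbx22, Foxl2, Osr2 and Alx1 form a red block in both libraries. In the control, Tbx22 was found in 6.86% (3.80 to 11.2) of cells with Alx1 and 4.68% (3.92 to 5.54) of those without, with overlapping intervals.

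Over 21 classes and subtypes with at least 50 cells in each library, levels of pairs were compared by Pearson's r of log2(level + 1). These values share the libraries and the split between mesenchyme and other cells, which raises every r between mesenchyme genes, and are given as a description. Foxc1 and Foxc2 had r of 0.90 in the control and 0.94 in the mutant, Foxl2 and Tbx22 0.92 and 0.88, Osr1 and Tbx22 0.92 and 0.85, Lmx1b and Twist2 0.88 and 0.85, and Osr1 and Osr2 0.75 and 0.77. The lowest was Foxc2 with Osr1 in the control, at 0.31. Genes outside the 9 with the most similar patterns, by the smaller of both r, included for Lmx1b the long noncoding RNA C130021I20Rik (0.98 and 0.99) and the homeodomain factor gene Prrx2. The others were Mdfi, Snai2 and Igf2 for Foxc1, Rerg, Ptges and Adamtsl1 for Foxc2, and Cd34, Cdc42ep2 and Creb5 for Foxl2. Epyc, Tbx15 and Nts were closest to Osr1, Gata3, Nipal2 and Matn2 to Osr2, and Pamr1, Galnt16 and Cys1 to Alx1. Epyc, Mfap5 and Fgf7 were closest to Tbx22, and the collagen gene Col6a3, Thbs2 and the paralog Twist1 (0.97 and 0.96) to Twist2.

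The mutant was then compared with the control over all mesenchyme-like cells. None of the 9 factors differed by 1.5-fold or more in either direction. Of the 14909 genes with at least 20 UMIs, 5.89% were at least 1.5-fold higher and 2.58% at least 1.5-fold lower in the mutant. For a set of 9 genes a count of 0 is near these shares and does not set the factors apart. The median log2 ratio of the 9 was -0.15, that of all genes -0.01, and 5 of the 9 were lower and 4 higher. Foxl2 went from 55.4 to 38.7 CPM, a ratio of 0.698 (0.652 to 0.748). Tbx22 went from 26.7 to 19.2 (ratio 0.719, 0.651 to 0.794) and Foxc2 from 32.2 to 23.3 (0.721, 0.659 to 0.789). Osr2 went from 154 to 123 (0.801, 0.770 to 0.833) and Foxc1 from 125 to 113 (0.902, 0.864 to 0.941). Alx1 was at 38.6 in the control and 50.7 in the mutant (1.31, 1.23 to 1.41), and Lmx1b at 38.3 and 42.7 (1.11, 1.04 to 1.20). For Osr1 (32.0 and 34.0, ratio 1.06) and Twist2 (171 and 175, ratio 1.02) the counting intervals included 1. The count of 0 past 1.5-fold depended on which cells were compared. In cells with an Xist and no Y-linked UMI, Foxc2 (log2 ratio -0.66), Tbx22 (-0.70) and Alx1 (0.90) passed it, without the Grp/Hpgd subtype Foxl2 (-0.73) and Tbx22 (-0.65) did, and without cells over 20000 UMIs Alx1 (0.66) did.

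The makeup of the mesenchyme also differed between libraries, and the summed values moved with it. As shares of mesenchyme-like cells, the Grp/Hpgd subtype was at 0.772% of control and 5.12% of mutant cells (ratio 6.62, 4.20 to 10.9), and keratocyte-like cells at 7.86% and 12.2% (1.55, 1.29 to 1.85). Nts/Mgat4c cells were at 7.39% and 11.9% (1.61, 1.34 to 1.94). S100a6/Angptl7 cells, with Osr2 and Twist2, were at 5.71% and 2.76% (0.484, 0.355 to 0.654), and Mfap5/Tnxb cells, where Osr1, Foxl2 and Tbx22 were high, at 16.02% and 12.03% (0.751, 0.643 to 0.875). Tissue was cut away from the cups by hand before dissociation, and with 1 library per genotype dissection and genotype cannot be told apart. When the mutant was given the control makeup of subtypes, Foxl2, Tbx22 and Foxc2 stayed lower, with ratios of 0.720, 0.754 and 0.796, while Osr2 moved to 0.931, Twist2 to 0.894 and Alx1 to 0.879.

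**Figure D4:**
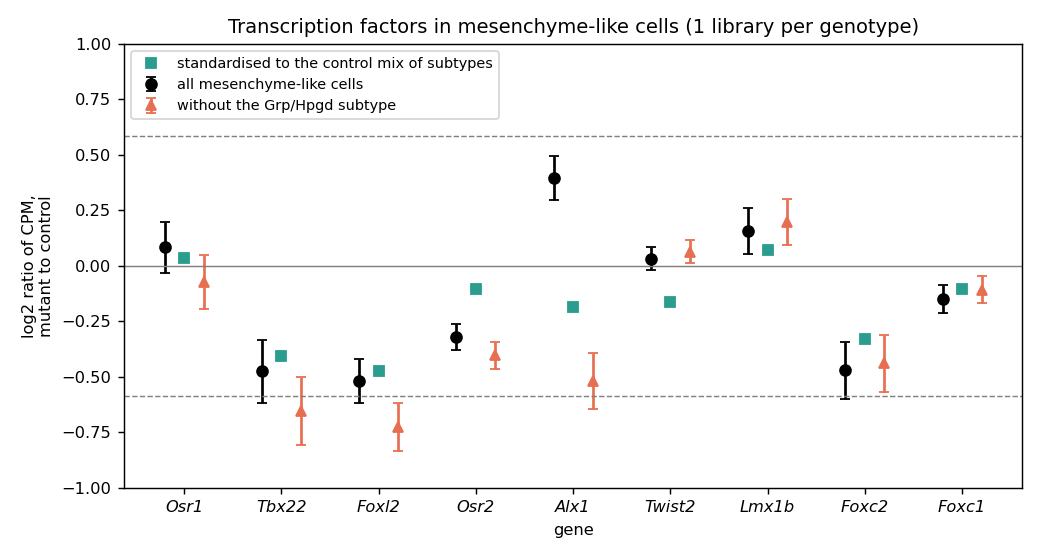
Log2 ratio of CPM in mesenchyme-like cells, mutant to control, for each of the 9 factors, over all cells (circles), with the mutant given the control mix of subtypes (squares) and without the Grp/Hpgd subtype (triangles), with bars on circles and triangles for 95% counting intervals and dashed lines at 1.5-fold. Circles lie within the dashed lines for all 9 genes, and Alx1 changes sign between the circle (0.39) and the triangle (-0.52).

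Alx1 was higher in the summed mutant mesenchyme but lower in most subtypes. Of 1627 mutant Alx1 UMIs in mesenchyme-like cells, 861 came from the 111 Grp/Hpgd cells, against 147 of 1675 UMIs from 23 such cells in the control. In 7 of the 9 larger subtypes with at least 20 Alx1 UMIs the mutant level was lower, in 4 of them with an interval below 1. Among these 4 were keratocyte-like cells (0.199, 0.0483 to 0.615), where the 16 control UMIs came from 2 of 234 cells. Tagln/Fmo1 cells, for instance, had 23.7 and 15.99 (ratio 0.675, 0.504 to 0.897) and Mfap5/Tnxb cells 97.0 and 82.6 (0.851, 0.729 to 0.990). Without the Grp/Hpgd subtype the log2 ratio of Alx1 was -0.52 instead of 0.39. Y-linked UMIs were found in 25.2% (17.5 to 34.4) of mutant Grp/Hpgd cells, a lower share than the 51.8% of all mutant mesenchyme-like cells. Detection depends on depth, and the median was 8755 UMIs in mutant Grp/Hpgd cells against 13976.5 in all mutant mesenchyme-like cells. Mutant Grp/Hpgd cells with a Y-linked UMI had Alx1 at 590 (506 to 683) and those without at 877 (812 to 945). The level was thus high in both sets, with intervals that did not overlap. The part of embryo or of dissection in the excess of these cells was not tested.

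**Figure D5:**
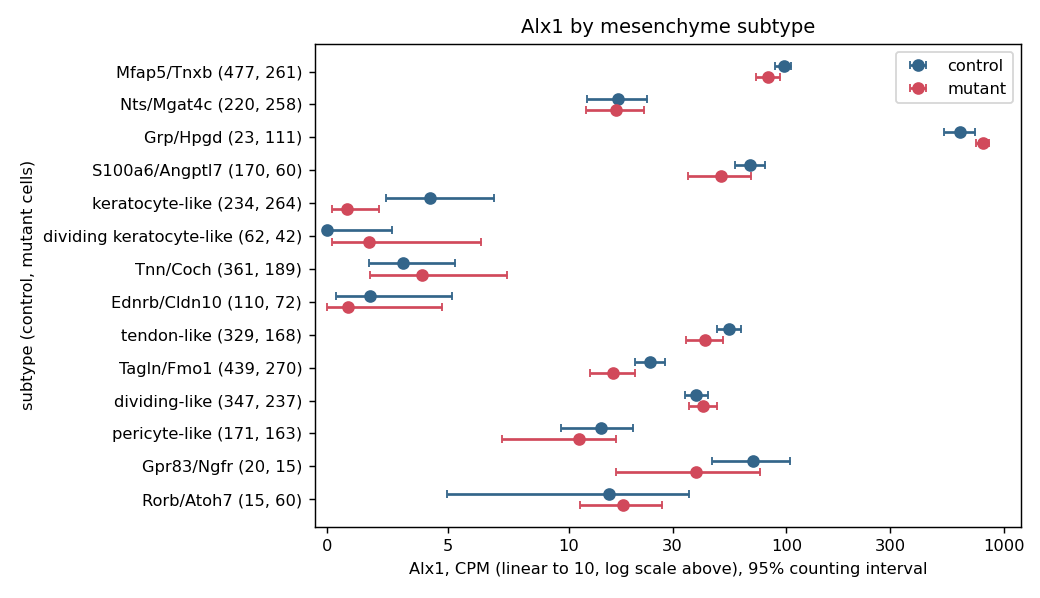
Alx1 in CPM (linear to 10, log scale above) by mesenchyme subtype in the control (blue) and mutant (red) library, with 95% counting intervals. Grp/Hpgd cells, at 629 and 797, stand apart from the others in both libraries, and they number 23 in the control and 111 in the mutant.

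Foxl2 was lower in the mutant in all 8 of the larger subtypes with at least 20 Foxl2 UMIs, in 4 with an interval below 1. In pericyte-like cells, under that limit, the ratio was 5.25 (1.12 to 49.3). It rested on 2 UMIs in 2 of 171 control cells and 10 UMIs in 2 of 163 mutant cells. Mfap5/Tnxb cells had 246 and 170 CPM (ratio 0.691, 0.623 to 0.765), and tendon-like cells 21.3 and 7.75 (0.363, 0.210 to 0.598). In Grp/Hpgd cells, fewer than 50 in the control, Foxl2 was at 158 and 197 with an interval of the ratio from 0.875 to 1.82. Tbx22 in Mfap5/Tnxb cells went from 120 to 75.6 (0.630, 0.540 to 0.733), whereas in S100a6/Angptl7 cells it was higher, at 34.6 and 54.0 (1.56, 1.05 to 2.30). Because Tbx22 is X-linked, it was also compared in cells with an Xist UMI and no Y-linked UMI (2919 control and 831 mutant cells), where its log2 ratio was -0.70 against -0.48 over all cells. Foxc2 was lower in 9 of the 10 larger subtypes, 2 of them with an interval below 1, among them Tnn/Coch cells at 54.6 and 33.9 (0.622, 0.476 to 0.806). Twist2, flat in the sum, was lower in 7 of the 10 larger subtypes, 3 of them with an interval below 1, among them Tnn/Coch cells at 472 and 380 (0.806, 0.744 to 0.872), and higher with an interval above 1 in Mfap5/Tnxb cells at 38.3 and 51.4 (1.34, 1.09 to 1.66). Osr2 was lower in 6 of the 9 larger subtypes with at least 20 UMIs, 2 of them with an interval below 1. It was higher with an interval above 1 in pericyte-like cells (3.57, 1.26 to 12.4), from 5 and 17 UMIs in 4 and 5 cells. Tbx22 was lower in 5 of 6, 1 of them with an interval below 1. Osr1 was lower in 4 of 6, none of them with an interval below 1, and higher with an interval above 1 in Tagln/Fmo1 cells at 4.88 and 8.79 (1.80, 1.11 to 2.94). It was also higher in mutant Grp/Hpgd cells, at 136 against 42.8 (3.18, 1.68 to 6.77), the control value resting on 10 UMIs. Foxc1 was lower in 8 of 10 larger subtypes, 3 of them with an interval below 1, among them Nts/Mgat4c cells at 165 and 115 (0.697, 0.599 to 0.810). Lmx1b was higher in 7 of 10, but with an interval above 1 only in Tagln/Fmo1 cells, at 27.6 and 36.3 (1.32, 1.06 to 1.63). The largest differences in keratocyte-like cells concerned genes at low levels there: Alx1 had 16 and 4 UMIs and Tbx22 15 and 2.

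Other markers moved between the libraries in these cells. Summed dissociation stress genes were at 997 CPM in control and 777 in mutant mesenchyme-like cells, 9 of 11 lower. All 14 neural retina genes listed as a sign of free RNA or doublets were higher in the mutant, 11 past 1.5-fold, with a median log2 ratio of 1.32 that was 0.83 without the Rorb/Atoh7 subtype, a set of 15 control and 60 mutant cells led by retinal genes. Without that subtype the log2 ratio of each of the 9 factors stayed within its counting interval. Markers of pericytes were higher in the mutant, with ratios from 1.09 for Notch3, whose interval included 1, to 3.38 for the scarce Higd1b, among them Rgs5 at 27.1 and 46.2 CPM (1.70) and Ndufa4l2 at 11.7 and 28.2 (2.40). The pericyte-like subtype was at 5.74% and 7.51% of mesenchyme-like cells (1.31, 1.05 to 1.63), and without it too the log2 ratio of each of the 9 stayed within its counting interval. Haemoglobin transcripts, which come from red blood cells, were at 7963 and 5357 CPM over all mesenchyme-like cells and at 11015 and 270.1 in pericyte-like cells. The share of these RNAs in the other differences was not tested.

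Other transcription factors of mesenchyme and the retinoic acid pathway, which acts on periocular mesenchyme, were read from separate lists. Of 65 such factors, 62 had at least 20 UMIs, of which 8 were at least 1.5-fold higher and 2 at least 1.5-fold lower in mutant mesenchyme-like cells, with a median log2 ratio of -0.10. Over all genes the shares were 5.89% and 2.58%, and the 2 lower factors were near that share. Higher were Zic2 (1.27 and 3.06 CPM), Meis1 (4.86 and 11.2), Foxs1 (3.39 and 6.14), Zic1 (1.45 and 2.34) and Tbx3 (5.60 and 8.89). Meis1 is among the genes leading the Grp/Hpgd subtype and Foxs1 among those leading the pericyte-like subtype. Zic1 and Zic2 are also expressed in retinal progenitors. Among the lower was Pitx1, a homeodomain factor of hindlimb and jaw that led the Mfap5/Tnxb subtype, at 39.2 and 24.3 (ratio 0.620, 0.569 to 0.675). Next were Barx1 at 4.49 and 3.02, Gli1, a target of Hedgehog signalling, at 16.7 and 11.7, Meox2 at 63.0 and 46.4, and Foxd2 at 22.4 and 16.6, of which the last 4 did not reach 1.5-fold. Of 20 retinoic acid genes, 19 were measured, and 1, the synthesis enzyme gene Aldh1a1, was past 1.5-fold, at 1.57 and 4.12, which is near the share over all genes. The synthesis enzyme Aldh1a2 was at 43.3 and 54.8, the degrading enzymes Cyp26a1 at 10.7 and 15.8 and Cyp26b1 at 10.7 and 7.14, and the receptor Rarb at 77.8 and 64.5, with a median log2 ratio over the list of -0.05. Cyp26a1 was among the genes leading a retinal progenitor cluster and also the Ecm1/Lypd1 set of mesenchyme-like cells. Aldh1a1 was among those leading an unnamed cluster that scored best for retinal progenitors. Both genes were higher in the mutant, as were the neural retina genes and the share of pericyte-like cells. The parts of retinal RNA and of subtype makeup in their values were not tested.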

How the data were processed

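Single-cell RNA-seq was analysed from 1 control (Myrf fl/fl) and 1 mutant (Rx>cre Myrf fl/fl) library, with genotypes as labelled. The files deposited by the authors hold raw UMI counts of each gene in each cell, made with Cell Ranger on mm10. Its version is 7.1.0 in the submitters' processing notes and 3.1.0 in the matrix header. Samples of other ages were not used here.

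Cells with under 200 genes or over 15% mitochondrial UMIs were left out, and Scrublet (expected rate 0.1) removed 424 control and 442 mutant doublets. With scanpy 1.11.5, counts were scaled to 10000 per cell, and 34 clusters were made from 1840 of the 2000 most variable genes (30 components, 15 neighbours, Leiden resolution 1.0), without integration. The features excluded the 9 genes, naming markers, globin, mitochondrial and sex-linked genes. Mesenchyme-like cells were divided again at resolution 0.5 on 1815 features. Names were rebuilt from markers, by score limits chosen after looking at the data, and can differ from the study's. A limit of 2000 UMIs per cell, given in the study's methods, was used only as an alternative, since it would leave 44 mesenchyme-like cells.

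UMIs of a gene were summed over cells and given as CPM. Sums carry exact Poisson, ratios exact conditional binomial, and shares exact Clopper-Pearson 95% intervals, for counting error only. With 1 library per genotype no test was made and no p-value is given. In the ratios over all genes a gene at 0 in a library was set to 3 counts, and ratios of the 9 factors used the counts as they were. The ratio and its interval were tested on simulated data. The 9 genes and the gene lists were chosen with earlier results of these data known. Named genes were the 9, the 3 most similar genes of each with at least 200 UMIs in each library, and, of the other lists, up to 5 in each direction with at least 100 UMIs. Genes leading subtypes were named after their values were seen. Some genes that this rule or these counts include are not reported here.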

Additional observations from a re-analysis of the deposited data

Results flagged for a closer look

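Y-linked UMIs were found in 51.8% of mutant mesenchyme-like cells (1123 of 2170) and in 0.0336% of control ones (1 of 2978), a signal in genes outside the comparisons. With each library a pool of 3 eye cups, the control held next to no male cells. For the 9 factors the comparison within cells that had Xist and no Y-linked UMI is therefore given with the effects of processing.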

How the results depend on the processing

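No paired analysis was possible because there was 1 library per genotype, and for the same reason no replicate could be left out. Values below are log2 ratios in mesenchyme-like cells unless named otherwise. Of the values recomputed for the share of these cells, the 9 ratios and the counts of genes past 1.5-fold, 145 stayed within the counting interval (or within 1.5 times, for counts), 29 moved further and 5 reversed. A change of sign counted as a reversal only where the interval over all cells excluded no difference, so the turns of Osr1 and Twist2 below are not among the 5. With the limit of 2000 UMIs, which left 44 of these cells, the ratio of shares turned to 1.39, and Lmx1b to -0.55 and Alx1 to -2.87, while Foxc1 was -1.55, Foxl2 -0.87, Osr1 1.04, Osr2 -0.22, Tbx22 -2.13 and Twist2 -0.55, each from 18 UMIs or fewer, with 77 genes higher and 42 lower. Alx1 also reversed without the Grp/Hpgd subtype (-0.52) and with the control makeup of subtypes (-0.19). Without the Grp/Hpgd subtype Foxl2 was -0.73 and Tbx22 -0.65, both then past 1.5-fold, Osr1 -0.073 and Osr2 -0.40. With the control makeup Foxc2 was -0.33, Osr2 -0.10 and Twist2 -0.16. In cells that had an Xist but lacked any Y-linked UMI, the share ratio was 0.776, Foxc2 was -0.66, Tbx22 -0.70, Alx1 0.90, all 3 past 1.5-fold, Osr2 -0.39 and Twist2 0.28, and 659 genes were lower. At a mitochondrial limit of 5% Lmx1b was 0.30, Osr1 -0.10 and Alx1 0.28. Without cells over 20000 UMIs Alx1 was 0.66, past 1.5-fold, and Twist2 -0.081. With a minimum of 100 UMIs per gene, which tests fewer genes, 351 were higher and 121 lower. Apart from the effects of fewer cells or genes, the cause of these shifts was not tested. Resolution, clustering features, doublets, free RNA, the 5 richest cells and scaling by the median ratio left all 9 ratios within their intervals. Alternatives without the Grp/Hpgd, Rorb/Atoh7 or pericyte-like subtype, or with the low-depth stromal cluster, were chosen after seeing the data. With 1 library per genotype the spread between animals is unknown, and depth limits mainly the subtypes with few cells.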
